A study of Papio anubis with 28 samples.

Results

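The 10 genes described here code for proteins of the elastic fibre and its microfibril scaffold: ELN, FBN1, MFAP4, MFAP5, LTBP4, LTBP2, FBLN5, EFEMP1, EFEMP2 and LOX. They were taken by symbol from a table of 27533 genes, and each of the 10 symbols matched 1 row. RNA was sequenced from the bladders of 14 olive baboons (Papio anubis), all labelled wild type, as 1 library of native bladder and 1 library of grafted tissue per animal, 28 in all. The Entero arm held 5 animals that received an ileum graft, as in a bladder augmented with bowel. In the SIS arm (5 animals) and the PRS arm (4 animals) the graft carried primary bone marrow cells, namely mesenchymal stromal cells (MSC) and CD34+ haematopoietic stem and progenitor cells (HSPC). The labels do not spell out SIS or PRS, the age of the animals, the interval after surgery or the layer of the wall that was sampled. Scaffold without cells and ungrafted ileum were not analysed here, so effects of cells, scaffold, surgery and organ of origin cannot be told apart.

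An elastic fibre is a core of crosslinked elastin laid on a bundle of fibrillin microfibrils. Fibrillin-1 forms the microfibril, the microfibril-associated glycoproteins and latent TGF-beta binding proteins sit on it, fibulins bring elastin to it, and lysyl oxidase crosslinks the elastin. In the bladder, elastic fibres lie between muscle bundles, in the lamina propria and in the outer coat, where they help the wall recoil after filling. Fibroblasts and smooth muscle cells make most of these proteins.

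The labelled tissues carried the markers of their organ. Summed CPM (read counts of a gene relative to the scaled library size) of 5 intestinal epithelial markers lay between 1355 and 8428 in ileum grafts and were at most 201 in the other 23 libraries. The sum of 5 urothelial markers lay between 1.38 and 20.3 CPM in ileum grafts and was at least 177 CPM elsewhere. Library totals ran from 20975648 to 35669026 counts. Every member had reads in all 28 libraries, from 23 reads of LOX in ileum graft 5 to 73735 reads of LTBP4, so depth did not limit detection of any member. The libraries held different amounts of muscle: the sum of 5 smooth muscle markers spanned 6518 to 75522 CPM in native bladders of the Entero arm, and 2620 to 70081 CPM in those of the PRS arm. In such bulk tissue, fewer cells of a type and less RNA per cell cannot be told apart.

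Levels of different genes were compared per length, as TPM (transcript abundance relative to the whole library, computed from the deposited gene lengths). These lengths run from 1414 bases for ELN to 12234 bases for FBN1. In the 14 native bladders MFAP4 (ENSPANG00000023660), a glycoprotein that binds elastin and fibrillin, stood highest at 691 ± 339 TPM (SD, n = 14). LTBP4 (ENSPANG00000000994), which binds latent TGF-beta and fibulin-5, followed at 276 ± 108 TPM. MFAP4 exceeded LTBP4 in 14 of 14 native libraries, although their ranges overlapped between animals.

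The fibulins EFEMP1 and EFEMP2 came next at 215 ± 125 and 138 ± 65.1 TPM. MFAP5, a glycoprotein of microfibrils, stood at 86.2 ± 77.7 TPM and ELN, the elastin precursor, at 68.4 ± 47.1 TPM. MFAP5 was above ELN in 8 of 14 native bladders, so the order of these neighbours was not steady between animals. The deposited ELN length of 1414 bases was not checked against a gene model, and the TPM of ELN and its place in the order depend on it. FBLN5, fibulin-5, stood at 45.8 ± 28.7 TPM and FBN1, fibrillin-1, at 34.1 ± 27.4 TPM, with FBLN5 above FBN1 in 13 of 14. LTBP2, a fibrillin-binding protein that does not bind latent TGF-beta, stood at 6.82 ± 3.35 TPM. LOX, lysyl oxidase, was lowest at 5.10 ± 3.21 TPM and lay below LTBP2 in 10 of 14. Neighbours in this order all had overlapping ranges. MFAP4 led in each of the 6 groups per length, whereas LTBP4 had the largest CPM in each.

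**Figure D1:**
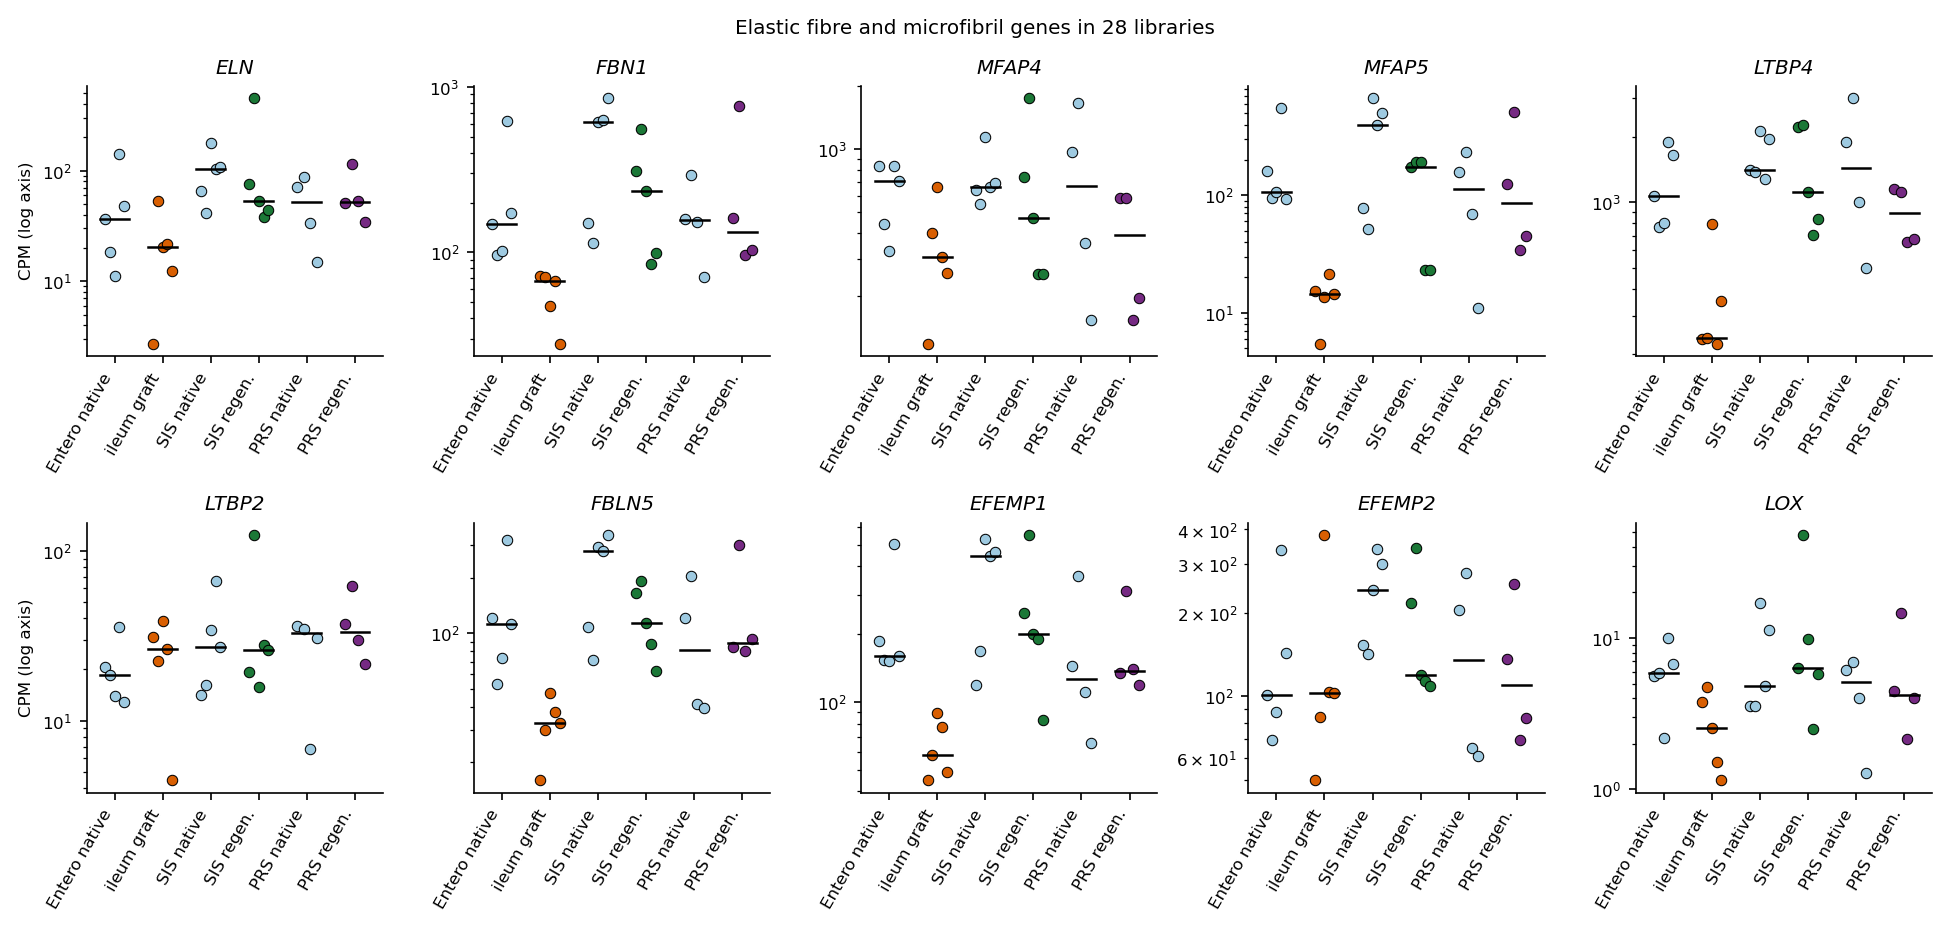
Level of each of the 10 genes in every library, in CPM on a log axis, by group (points are libraries, black lines are group medians). The 5 ileum grafts sit below the 5 native bladders of their own arm for FBN1, MFAP5, FBLN5 and EFEMP1, while the regenerated tissues overlap the native bladders for all 10 genes.

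Native bladders differed widely between animals. MFAP5 (ENSPANG00000007774) had the widest range, from 10.9 CPM in native bladder 4 of the PRS arm to 670 CPM in native bladder 3 of the SIS arm, a ratio of 61.6. ELN (ENSPANG00000008675) ran from 11.2 to 177 CPM and FBN1 (ENSPANG00000017748) from 70.6 to 854 CPM. EFEMP2 (ENSPANG00000001161) had the narrowest range, 61.0 to 340 CPM, a ratio of 5.58. High values met in the same animals: native bladder 4 of the Entero arm and native bladders 3, 4 and 5 of the SIS arm held the 4 highest levels of FBN1, FBLN5, EFEMP1 and MFAP5.

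Over the 14 native bladders the members varied together. The median Pearson's r between members was 0.78 on log2(CPM + 1), and 41 of 45 pairs were above 0.50. This is a description of 14 animals from 3 arms. No share over all pairs of genes is given beside it, so it does not show a trait particular to these members. Their libraries held different amounts of muscle, and the layer of the wall sampled was not given. The closest pairs were FBLN5 with EFEMP2 (r = 0.94, Spearman's rho 0.92), MFAP5 with EFEMP1 (r = 0.94, rho 0.86) and FBN1 with FBLN5 (r = 0.93, rho 0.89). MFAP4 was closest to LTBP4 (r = 0.92, rho 0.84) and farther from FBN1 (r = 0.60, rho 0.63). LTBP2 stood apart from the rest, with a median r of 0.53 to the other 9 and a lowest r of 0.31, to LTBP4.

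**Figure D2:**
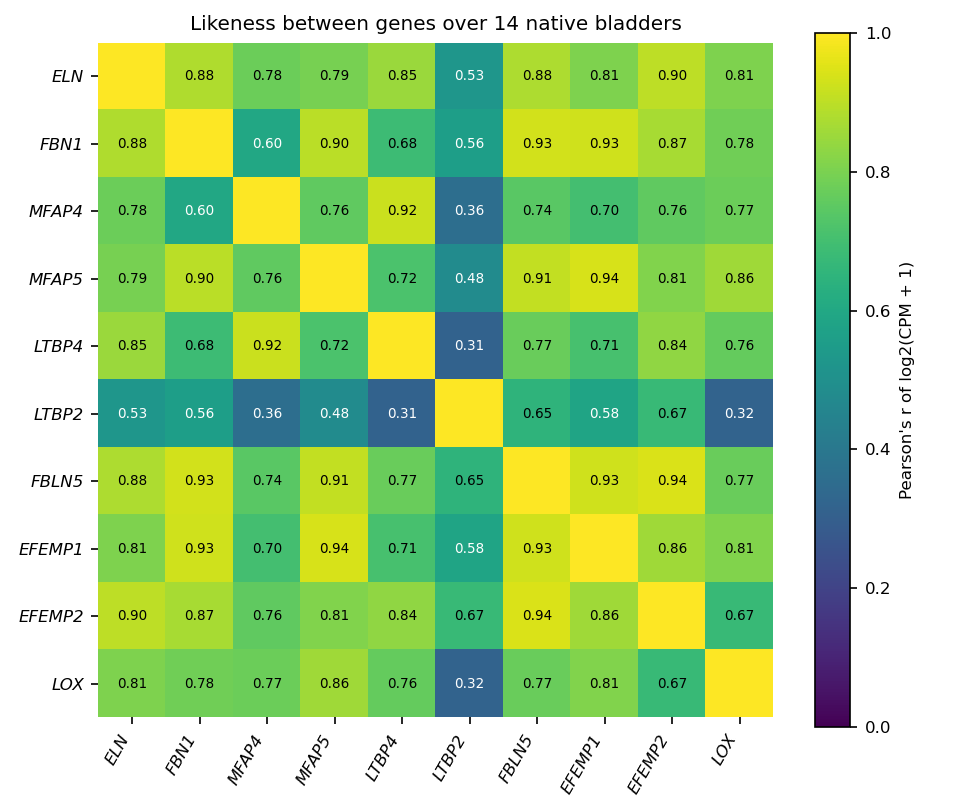
Pearson's r of log2(CPM + 1) between each pair of the 10 genes over the 14 native bladders, on a colour scale from 0 to 1. The row of LTBP2 runs from 0.31 to 0.67, and FBLN5 with EFEMP2 gives the highest, 0.94.

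Marker sums varied along with the members in these bladders. EFEMP2 followed the smooth muscle sum most closely (r = 0.95, rho 0.97), and FBLN5 gave r = 0.90 with it (rho 0.88). ELN was closest to the sum of 6 fibroblast markers (r = 0.96, rho 0.95). LTBP4 and MFAP5 were closest to the sum of 5 adventitial fibroblast markers, PI16, CD248, SCARA5, DPP4 and CD34 (r = 0.91 and 0.90). The same sum was closest for FBN1 (r = 0.90, against 0.89 for fibroblasts), MFAP4 (r = 0.85), EFEMP1 (r = 0.86) and LOX (r = 0.86). FBLN5 also gave r = 0.90 with it, at a rho of 0.95 against 0.88 for muscle. LTBP2 was the least like any of these, with r = 0.63 for muscle, 0.45 for fibroblasts and 0.40 for adventitial fibroblasts. The leukocyte marker sum ran against all members, from r = -0.87 for EFEMP2 to -0.43 for LOX. Over the 9 regenerated tissues the fibroblast sum was instead closest for MFAP4 (r = 0.89), EFEMP1 (r = 0.88), EFEMP2 (r = 0.95) and LOX (r = 0.94). There FBN1, MFAP5 and LTBP4 stayed closest to the adventitial fibroblast sum (r = 0.93, 0.95 and 0.85).

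Outside the 10, the 3 genes most like ELN over the same 14 libraries were FKBP10, a chaperone of collagen folding (r = 0.97), CCDC80 (r = 0.97) and COL6A2, a chain of collagen VI (r = 0.96). FBN1 was most like FSTL1 (r = 0.96), FN1, fibronectin (r = 0.95), and CDH13 (r = 0.95). TNXB, tenascin X, which lies on collagen and elastic fibres, was among the 3 most like MFAP5 (r = 0.94), FBLN5 (r = 0.97) and EFEMP1 (r = 0.94). The nearest to LTBP4 was MMP2, a gelatinase (r = 0.96), and the nearest to MFAP4 was ENTPD2 (r = 0.92). EFEMP2 was nearest to TRIM47 (r = 0.98), LTBP2 to SLC43A3 (r = 0.92) and LOX to CMTM3 (r = 0.89).

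The comparison of ileum graft with the native bladder of the same animals asked how the matrix of bowel in the bladder wall differed from that of the wall. Of the 10 members 5 fell and 0 rose: MFAP5, FBN1, FBLN5, EFEMP1 and LTBP4. Of all genes tested, 7.33% were lower and 7.72% higher by the same rule (edgeR's quasi-likelihood test, Benjamini-Hochberg adjusted p below 0.05). The median log2 fold change was -1.48 over the 10 members and -0.03 over all 17177 genes tested. The other 5 members, ELN, MFAP4, LTBP2, EFEMP2 and LOX, did not pass. The ranges of MFAP5, FBN1, FBLN5 and EFEMP1 did not overlap between the groups, which 5.86% of all genes tested showed in this direction. The 5 members that fell were the 5 that were lower in the graft in every animal, which 12.6% of all genes tested showed.

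MFAP5 differed most. It stood at 162, 94.5, 106, 550 and 92.3 CPM in native bladders 1 to 5 and at 15.4, 5.41, 13.5, 21.4 and 14.4 CPM in ileum grafts 1 to 5. The highest graft lay below the lowest native bladder, and the graft was lower in 5 of 5 animals. The log2 fold change was -3.84 (SE 0.92, adjusted p = 0.00524), a 14.3-fold difference. Within animals the graft held between 0.0389 and 0.156 of the native CPM.

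FBN1, the microfibril core, stood at 149, 96.7, 102, 626 and 173 CPM in native bladder and 72.4, 71.3, 47.5, 67.2 and 28 CPM in ileum. The groups did not overlap, although native bladder 4 stood far above the other native libraries. The log2 fold change was -2.0 (SE 0.68, adjusted p = 0.0469). This call was lost in 11 of 15 alternatives. With the animal as a block the log2 fold change was -1.67 (adjusted p = 0.129), and without native bladder 4 it was -1.18 (adjusted p = 0.236).

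Of the 3 fibulins among the members, FBLN5 and EFEMP1 passed and EFEMP2 did not; the difference between them was not tested. FBLN5 (ENSPANG00000007668), which tethers elastin to cells and microfibrils, read 121, 52.9, 73.8, 319 and 113 CPM in native bladder and 16, 30.1, 47.3, 37.3 and 32.5 CPM in ileum. EFEMP1 (ENSPANG00000022521), fibulin-3, read 186, 153, 152, 505 and 160 CPM in native bladder and 44.8, 58.0, 89.2, 77.5 and 48.5 CPM in ileum. Neither overlapped between groups, with log2 fold changes of -2.06 (SE 0.56, adjusted p = 0.0119) for FBLN5 and -1.86 (SE 0.52, adjusted p = 0.0146) for EFEMP1. Without native bladder 4 of that arm neither passed, at -1.46 (adjusted p = 0.0627) and -1.35 (adjusted p = 0.0698). EFEMP2, fibulin-4, which recruits lysyl oxidase to elastin, read 101, 69.8, 87.7, 338 and 144 CPM in native bladder and 49.7, 84.0, 383, 103 and 103 CPM in ileum. Its groups overlapped, and the log2 fold change was -0.03 with a 95% interval of -1.16 to 1.09. For EFEMP2 the graft was higher in animals 2 and 3 and lower in animals 1, 4 and 5. Ileum graft 3, at 383 CPM, stood far above the other grafts and weighs on this estimate.

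Of the latent TGF-beta binding proteins among the members, LTBP4 passed and LTBP2 did not; the difference between them was not tested. LTBP4 stood at 1065, 769, 804, 1892 and 1642 CPM in native bladder and at 235, 239, 798, 223 and 350 CPM in ileum. Ileum graft 3 was the only graft within the native range, and its ratio to its own native bladder was 0.993. The log2 fold change was -1.74 (SE 0.45, adjusted p = 0.00948) and -2.24 without that graft. LTBP2 (ENSPANG00000012340) stood at 20.6, 18.4, 14, 35.4 and 12.9 CPM in native bladder and 31.3, 22.4, 38.5, 26.3 and 4.44 CPM in ileum. The groups overlapped, with a log2 fold change of 0.28 (interval -0.90 to 1.46).

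Elastin itself did not pass. ELN stood at 36.1, 18.2, 11.2, 142 and 47.4 CPM in native bladder and 2.71, 53.0, 20.4, 21.7 and 12.4 CPM in ileum. The graft was lower in animals 1, 4 and 5 and higher in animals 2 and 3, and the log2 fold change was -1.21 (interval -2.75 to 0.33). MFAP4 stood at 327 to 832 CPM in native bladder, with a median of 709, and at 118 to 661 CPM in ileum, with a median of 306. Its log2 fold change was -0.85 (interval -2.04 to 0.34). LOX (ENSPANG00000025086) stood at 2.18 to 10.03 CPM in native bladder and 1.15 to 4.76 CPM in ileum, a log2 fold change of -1.14 (interval -2.58 to 0.29). The intervals of these 3 genes include both no difference and a 4-fold lower level.

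Ratios of reads within a library do not depend on scaling between libraries. They are given as a description, since the pairs were chosen after their values were seen. EFEMP2 over FBLN5 lay between 2.77 and 8.09 in the 5 ileum grafts, against 0.837 to 1.32 in native bladder of the same animals. In the SIS and PRS arms the same ratio lay between 0.831 and 1.98 in native bladder and between 0.841 and 1.79 in regenerated tissue. EFEMP2 over EFEMP1 lay between 1.11 and 4.29 in ileum and between 0.457 and 0.899 in native bladder of the Entero arm, but reached 1.29 in SIS native bladder, 1.32 in SIS regenerated tissue and 1.43 in PRS native bladder. MFAP5 over FBN1 lay between 0.0760 and 0.513 in ileum and between 0.535 and 1.09 in Entero native bladder, and went down to 0.154 in PRS native bladder. Of 7 ratios computed these 3 did not overlap between the 5 ileum grafts and the 5 native bladders of their arm. The other 4, MFAP5 over MFAP4, FBN1 over LTBP4, LTBP2 over LTBP4 and ELN over FBN1, overlapped.

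The summed TPM of the 10 members was 442 ± 244 in ileum and 1387 ± 508 in native bladder (SD, n = 5 each). The ranges overlapped: ileum graft 3 reached 814 TPM, and native bladder 3 of that arm stood at 730 TPM. MFAP5 made up 1.16 ± 0.799% of that sum in ileum and 5.21 ± 2.36% in native bladder, and EFEMP2 made up 16.4 ± 5.21% and 8.09 ± 2.13%. MFAP4 was the largest part in both tissues, at 52.5 ± 6.78% and 46.3 ± 9.06%. The shares of EFEMP2 and MFAP4 overlapped between the tissues.

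Other cell markers moved along with this difference. The adventitial fibroblast sum ran from 108 to 443 CPM in ileum and from 468 to 2878 CPM in native bladder, and none of its 5 markers was at 0. Its list includes DPP4 and CD34, which other cell types also carry, so it cannot be read as adventitial fibroblasts alone. The sum of 5 mesothelial markers ran from 1.55 to 21 CPM in ileum and from 91.6 to 444 CPM in native bladder. Its list includes UPK3B, a uroplakin, so it cannot be read as mesothelium alone. In native bladder 3 of this arm it was highest together with the urothelial sum (444 and 5275 CPM). In native bladder 4 both were lowest (91.6 and 342 CPM). The general fibroblast sum overlapped, at 619 to 3097 and 1092 to 6949 CPM. The smooth muscle sum overlapped, at 4120 to 88849 CPM in ileum and 6518 to 75522 CPM in native bladder. Ileum graft 3 had the largest of all 28 libraries. Its FBN1 and MFAP5 were 47.5 and 13.5 CPM, and its FBLN5, EFEMP1, LTBP4 and MFAP4 were the highest of the 5 grafts. In the same library EFEMP2 reached 383 CPM, the highest of the 28. The part of these cell contents in the result was not tested.

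**Figure D3:**
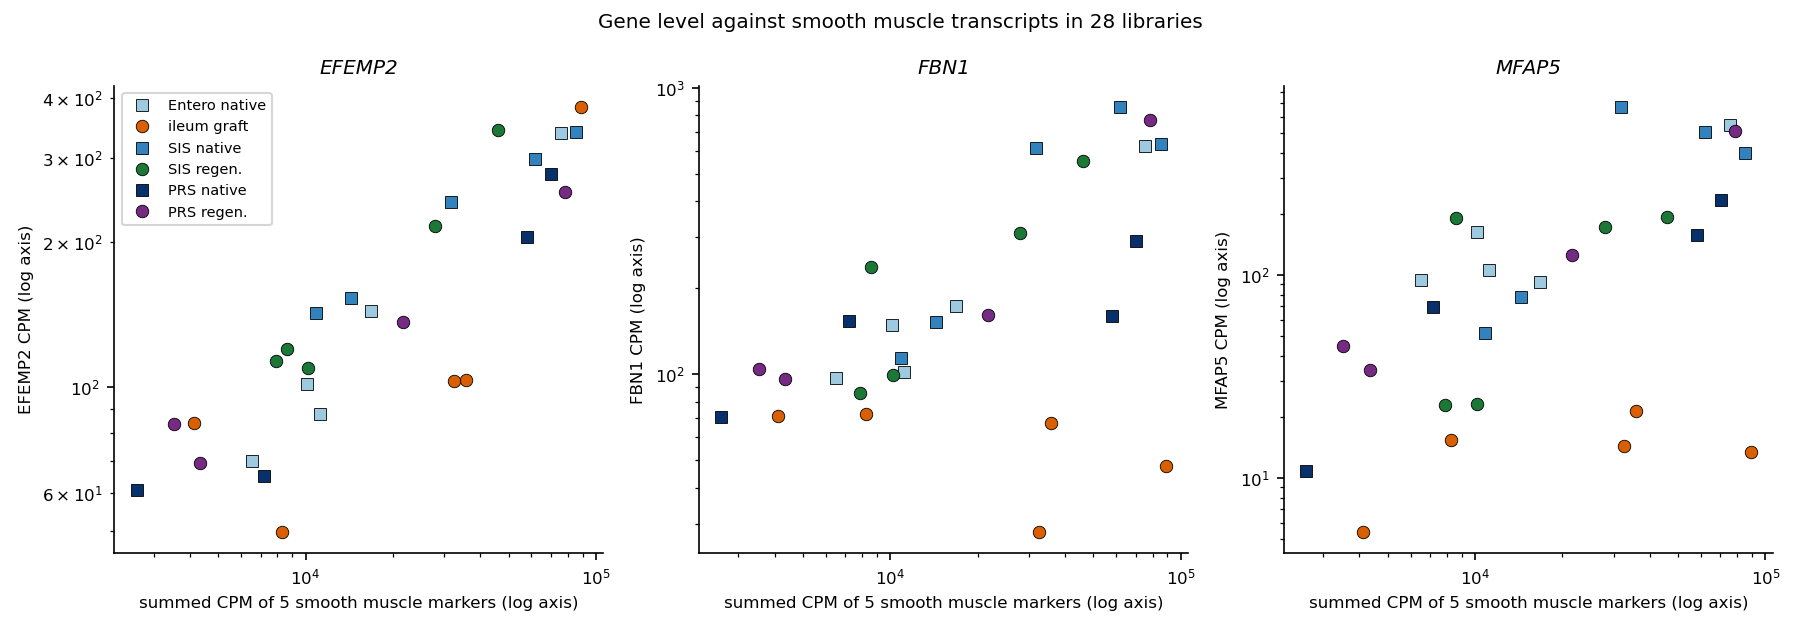
Level of EFEMP2, FBN1 and MFAP5 in CPM against the summed CPM of 5 smooth muscle markers, both on log axes, in 28 libraries (squares native, circles graft). EFEMP2 reaches 383 CPM in ileum graft 3, the library with the most muscle, whereas FBN1 and MFAP5 in the 5 ileum grafts stay at or below 72.4 and 21.4 CPM.

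Of 44 other genes of the elastic fibre pathway, 6 fell and 3 rose in ileum, and 35 did not pass (median log2 fold change -0.35, against -0.03 over all genes). Over all genes 7.33% were lower and 7.72% higher, so the 3 of 44 that rose were near the background share. FBLN1, fibulin-1, a protein of elastic fibres and basement membranes, averaged 1157 ± 429 CPM in native bladder, against 230 ± 128 CPM in ileum (SD, n = 5 each). Its change was -2.33 on the log2 scale (SE 0.44, adjusted p = 0.00058). FBLN2, fibulin-2, changed by -2.72 (SE 0.58) and THSD4, which promotes microfibril assembly, by -2.74 (SE 0.50). DCN, decorin, a small proteoglycan of collagen fibrils, changed by -2.63 (SE 0.55). The proteases MMP7, which epithelia secrete, and CTSK, which cleaves elastin and collagen, changed by -7.43 (SE 1.29) and -1.82 (SE 0.48). The 3 that rose, ADAMTSL5, LOXL2 and ADAMTSL2, are outside the naming rule and were picked after their values were seen. LOXL2, a relative of lysyl oxidase, changed by 1.74 (SE 0.59, adjusted p = 0.0473), ADAMTSL5 by 1.96 (SE 0.57) and ADAMTSL2 by 1.61 (SE 0.50).

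SIS regenerated tissue was set against native bladder to see whether tissue formed on the seeded graft differed in these genes from the bladder it joined. None of the 10 members passed in edgeR or DESeq2, and 0 reached an unadjusted p of 0.05. Of all 17177 genes tested 835 reached that unadjusted p and 0% passed in edgeR, while DESeq2 called 69. The groups overlapped for each member, and 1.14% of all genes tested did not overlap. Log2 fold changes ran from -1.50 for MFAP5 (interval -3.23 to 0.23) to 0.85 for LOX (interval -0.57 to 2.27), with a median of -0.29 against 0.03 over all genes. The widest intervals therefore leave room for differences of more than 4-fold.

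Behind this average the 5 animals went opposite ways. In animals 1 and 2 all 10 members were higher in the graft, with median log2 differences of 0.63 and 1.80. In animals 3, 4 and 5 all 10 were lower, with medians of -1.32, -1.40 and -1.44. Of all genes tested, 15.3% had this pattern, which was picked after the values were seen. MFAP5 stood at 77.6, 51.5, 670, 400 and 504 CPM in native bladders 1 to 5 and at 173, 193, 192, 22.9 and 23.1 CPM in regenerated tissues 1 to 5. FBN1 stood at 151, 114, 614, 633 and 854 CPM in native bladder and 311, 555, 235, 85.6 and 98.8 CPM in regenerated tissue. Both genes overlapped between the groups.

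The smooth muscle sum went the same way in the same animals. In native bladder and graft it was 14396 and 27997 CPM in animal 1 of the SIS arm, and 10849 and 45948 CPM in animal 2. It was 31803 and 8615 CPM in animal 3, 85245 and 7885 CPM in animal 4, and 61817 and 10195 CPM in animal 5. The adventitial fibroblast sum was also higher in the graft in animals 1 and 2 and lower in animals 3, 4 and 5. The part of these differences in tissue content in the members' values was not tested.

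Regenerated tissue 2 of the SIS arm held the highest CPM of ELN, MFAP4, LOX, LTBP2 and EFEMP1 of all 28 libraries. In TPM, MFAP4 was higher in PRS native bladder 2 (1453 against 1348) and EFEMP1 in SIS native bladder 3 (474 against 380). ELN stood at 64.9, 41.0, 177, 103 and 107 CPM in native bladder and 75.4, 450, 52.7, 37.8 and 44.4 CPM in regenerated tissue. LOX stood at 3.58, 3.56, 17.1, 4.83 and 11.3 CPM in native bladder and 6.31, 48.1, 9.89, 2.51 and 5.77 CPM in regenerated tissue. LTBP2 reached 124 CPM in regenerated tissue 2, against 15.9 to 27.9 CPM in the other 4. The fibroblast sum was also highest there, at 15685 CPM against 2739 to 5347 CPM in the other 4. The within-animal log2 difference of that animal was 3.42 for ELN and 3.43 for LOX, and 0.72 for LTBP4.

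The remaining members overlapped between the SIS groups. FBLN5 stood at 108, 71.7, 292, 279 and 342 CPM in native bladder and 166, 192, 114, 87.9 and 62.6 CPM in regenerated tissue (log2 fold change -0.81, interval -1.92 to 0.29). EFEMP1 stood at 119 to 529 CPM in native bladder, median 444, and 82.9 to 553 CPM in regenerated tissue, median 200.3. MFAP4 and LTBP4, with the largest counts, gave -0.09 (interval -1.27 to 1.09) and -0.19 (interval -1.10 to 0.72). EFEMP2 gave -0.38 (interval -1.51 to 0.74).

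**Figure D4:**
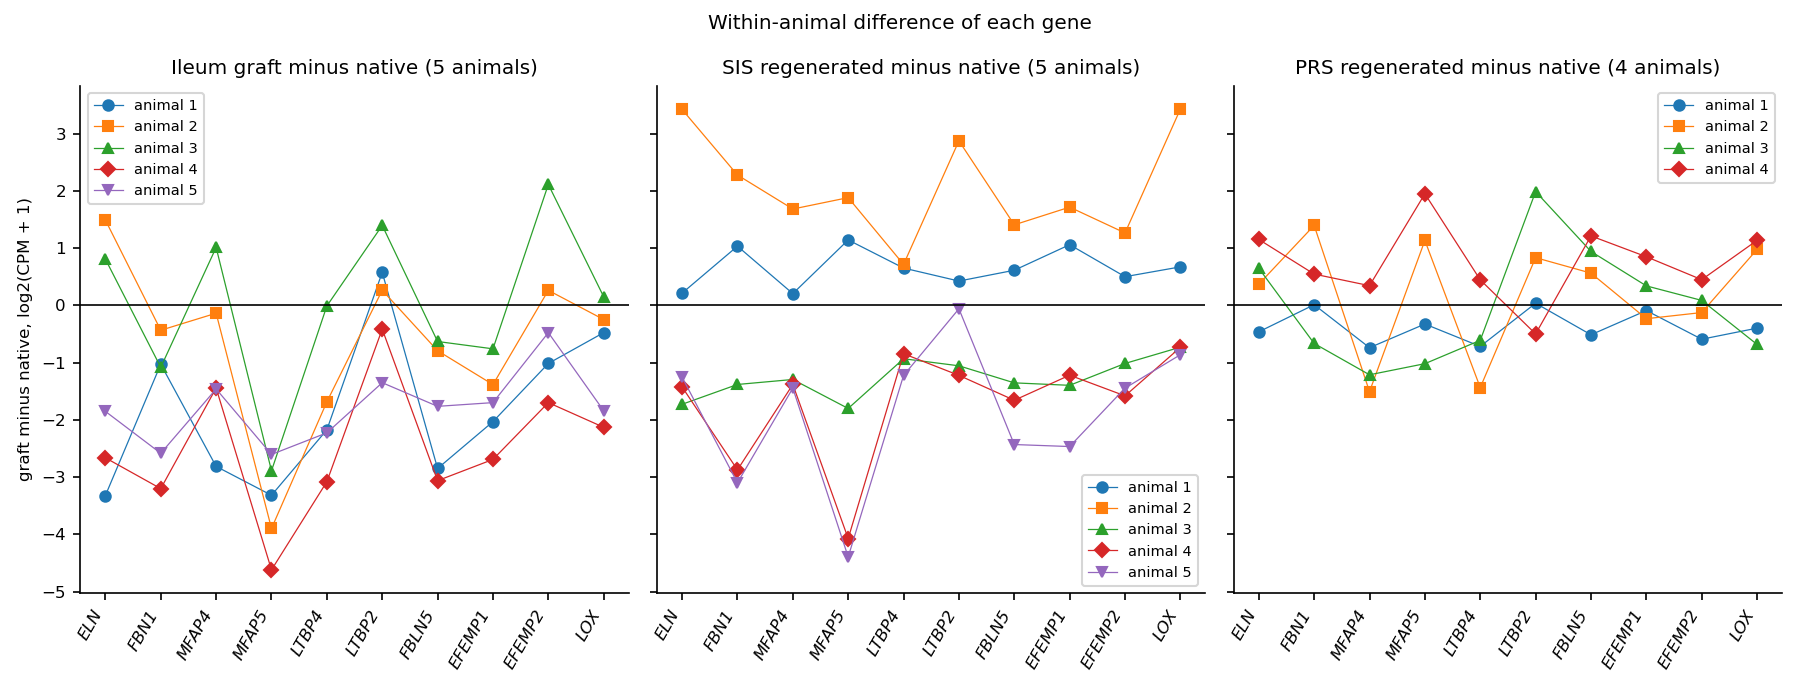
Graft minus native difference of each gene in log2(CPM + 1), by arm, with 1 line per animal. In the SIS panel animals 1 and 2 lie above 0 and animals 3, 4 and 5 below 0 for all 10 genes, and in the ileum panel MFAP5 is between -4.62 and -2.60 in all 5 animals.

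In the PRS arm the same question was asked for the other seeded scaffold. None of the 10 members passed in edgeR or DESeq2 (0% of all genes tested passed in edgeR), and 0 reached an unadjusted p of 0.05. That unadjusted p was reached by 622 of all 17177 genes tested. The groups overlapped for each member, and 1.2% of all genes tested did not overlap. Log2 fold changes ran from -1.05 for MFAP4 (interval -2.39 to 0.28) to 0.74 for FBN1 (interval -0.77 to 2.26). MFAP4 stood at 974.7, 1665, 357 and 152 CPM in native bladders 1 to 4 and 584, 586, 153 and 194 CPM in regenerated tissues 1 to 4, lower in the graft in 3 of 4 animals. LTBP4 stood at 1888, 3006, 999 and 499 CPM in native bladder and 1149, 1111, 654 and 680 CPM in regenerated tissue, also lower in 3 of 4 (log2 fold change -0.83, interval -1.85 to 0.19). The ranges of both genes overlapped between the groups.

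FBN1 stood at 160, 292, 153 and 70.6 CPM in native bladder and 161, 770, 95.9 and 104 CPM in regenerated tissue of the PRS arm. MFAP5 stood at 157, 233, 69.6 and 10.9 CPM and at 125, 513, 33.9 and 44.8 CPM. Regenerated tissue 2 was far above the other 3 in both genes, and its smooth muscle sum of 78238 CPM was likewise the highest of the 4, against 3523 to 21633 CPM. ELN stood at 70.3, 87.9, 33.5 and 14.9 CPM in native bladder and 50.8, 114, 53.1 and 34.3 CPM in regenerated tissue, higher in the graft in 3 of 4 animals (log2 fold change 0.29, interval -1.41 to 1.98). By animal, 2, 6, 5 and 9 of the 10 members were higher in the graft in animals 1 to 4. No member moved the same way in all 4 animals, which 9.69% of all genes tested did. With 10 members, 0 is near that share.

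With both scaffold arms averaged, 0 of 10 members passed in edgeR or DESeq2 (0% of all genes tested in edgeR), and 0 reached an unadjusted p of 0.05. Log2 fold changes lay between -0.57 for MFAP4 and 0.65 for LOX, and the bounds of the 10 intervals lay between -1.72 and 1.71. For LTBP4 the interval was -1.19 to 0.17 and for EFEMP1 it was -0.97 to 0.58. A change of 4-fold in either direction therefore lay outside the interval for each of the 10 genes in this average. The average over arms also joins animals that moved in opposite directions. Of the 44 other pathway genes 0 passed in edgeR or DESeq2 in the SIS arm, in the PRS arm or in both averaged. An unadjusted p under 0.05 was reached by 1, 3 and 2 of them. Of all 17177 genes tested 835, 622 and 856 reached it in the same comparisons, so these counts were near or below the background share.

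**Figure D5:**
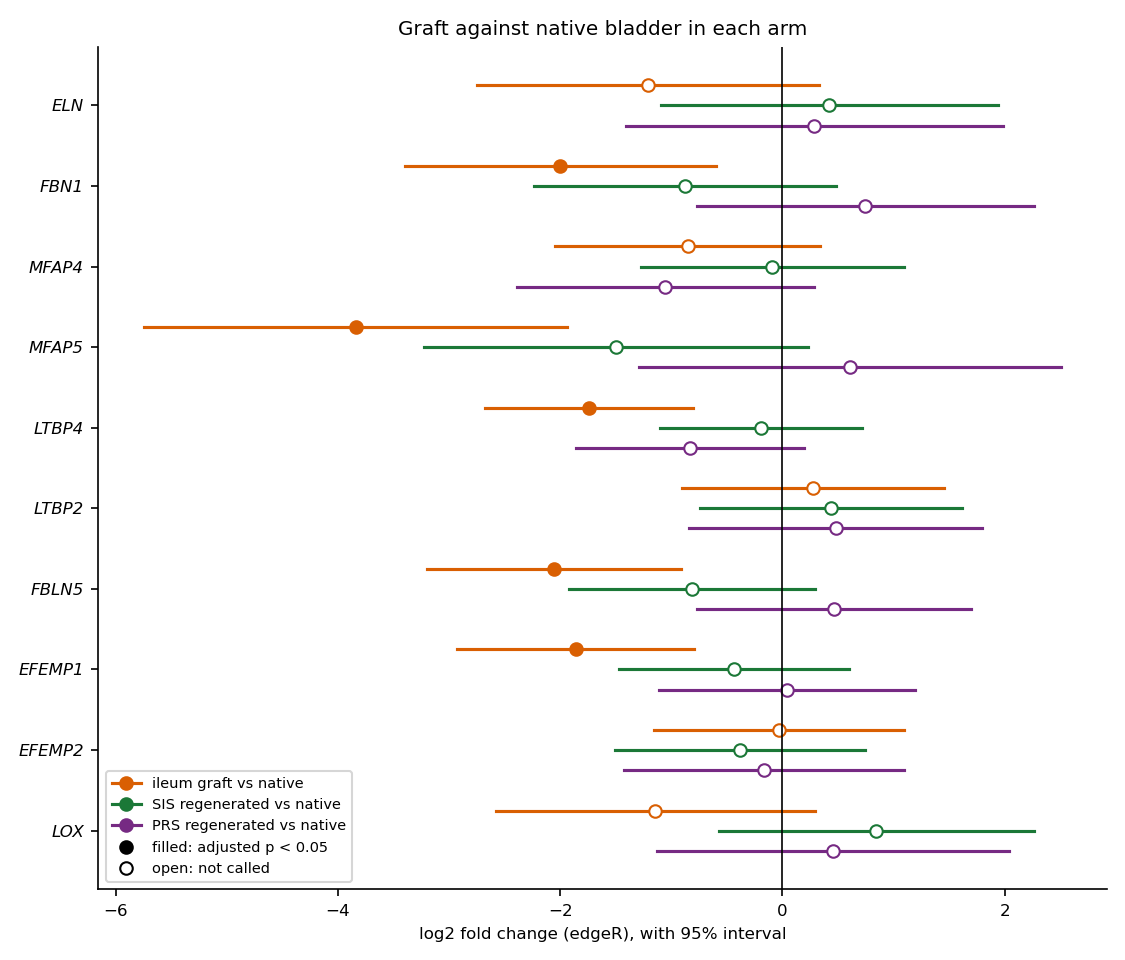
Log2 fold change of each gene between graft and native bladder with its 95% interval in the 3 arms (filled points passed edgeR's adjusted p of 0.05, open points did not). Filled points occur in the ileum comparison alone, for FBN1, MFAP5, LTBP4, FBLN5 and EFEMP1, and all intervals of the SIS and PRS arms span 0.

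The difference between arms was tested itself, as the mean graft change on the scaffolds minus the graft change in ileum. Of the 10 members 0 passed in edgeR, against 7.39% of all genes tested, 3.87% higher and 3.52% lower. An unadjusted p under 0.05 was reached by 6 members, as by 3601 of all 17177 genes tested. DESeq2 called 1 member, MFAP5, and 2035 of 17205 genes. MFAP5 gave a log2 difference of 3.40 (SE 1.07, interval 1.2 to 5.59, adjusted p = 0.0507 in edgeR and 0.0095 in DESeq2). It passed in edgeR when any 1 of 7 libraries was left out: Entero native bladder 2, SIS native bladder 3, SIS regenerated tissues 4 and 5, PRS native bladder 2, and PRS regenerated tissues 3 and 4 (adjusted p from 0.0379 to 0.0491). FBLN5 gave 1.88 (interval 0.49 to 3.27, adjusted p = 0.0904) and EFEMP1 1.67 (interval 0.36 to 2.97, adjusted p = 0.113). Without native bladder 2 of the PRS arm 3 members passed, MFAP5, FBLN5 and EFEMP1, and LTBP4 passed without ileum graft 3 (1.73, adjusted p = 0.0478). EFEMP2 gave -0.24 (interval -1.65 to 1.17) and LTBP2 0.18 (interval -1.29 to 1.65). Of the 44 other pathway genes, 4 passed with a higher change on the scaffolds and 2 with a lower one. Those 6 were FBLN1, DCN, THSD4 and MMP7 on the higher side and ADAMTSL5 and ADAMTSL2 on the lower side.

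Between the 2 scaffolds the graft change did not differ in a way that passed. Of the members 0 passed in edgeR or DESeq2 (0% of all genes tested in edgeR), and 0 reached an unadjusted p of 0.05. That unadjusted p was reached by 683 of all 17177 genes tested. The largest differences, PRS minus SIS, were 2.11 for MFAP5 (interval -0.46 to 4.68) and 1.62 for FBN1 (interval -0.41 to 3.66). These intervals are wide, so the scaffolds are not shown to act alike.

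Set directly against the ileum grafts, SIS regenerated tissue had 7 members higher and 0 lower, against 10.9% of all genes tested that were higher and 10.2% that were lower. The 7 were ELN, FBN1, MFAP5, LTBP4, FBLN5, EFEMP1 and LOX. This comparison uses the same ileum libraries as the one with native bladder and is between different animals, so organ, arm and animal cannot be told apart. The mesothelial sum, which cannot be read as mesothelium alone, ran from 46.2 to 462 CPM in SIS regenerated tissue, above the ileum range. The adventitial fibroblast sum, which cannot be read as those fibroblasts alone, averaged 976 CPM against 262 CPM. Its ranges overlapped, at 255 to 1690 CPM and 108 to 443 CPM. The part of these in the result was not tested. On the log2 scale MFAP5 was higher by 3.10 (SE 0.89, adjusted p = 0.0148), LTBP4 1.95 (SE 0.46, adjusted p = 0.00338) and EFEMP1 2.00 (SE 0.52, adjusted p = 0.0074). ELN gave 2.58 (SE 0.78, adjusted p = 0.0201) and LOX 2.40 (SE 0.72, adjusted p = 0.0197). Both rested on regenerated tissue 2: without it ELN gave 1.25 (adjusted p = 0.196), LOX 1.16 (adjusted p = 0.199) and FBN1 1.67 (adjusted p = 0.0858), which left 4 members called. Without ileum graft 5 the same 3 calls were lost (adjusted p = 0.0531 for ELN, 0.0537 for LOX and 0.0661 for FBN1). FBN1 was also lost without ileum graft 3 (adjusted p = 0.0508), and ELN and LOX with these groups fitted alone (adjusted p = 0.057 each). FBN1, MFAP5 and FBLN5 did not overlap between the groups, against 6.24% of all genes tested. Of the 44 other pathway genes 10 were higher and 1 lower, among them FBLN1 (2.96, SE 0.46), THSD4 (3.06, SE 0.51) and DCN (2.88, SE 0.55).

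PRS regenerated tissue had 3 members higher than the ileum grafts, MFAP5, FBN1 and FBLN5, and 0 lower, against 7.21% of all genes tested that were higher and 6.75% that were lower. DESeq2 called 5, adding LTBP4 and EFEMP1, and called 1576 of 17205 genes higher. MFAP5 gave 3.68 (SE 0.94, adjusted p = 0.00915), FBLN5 2.10 (SE 0.58, adjusted p = 0.0149) and FBN1 2.30 (SE 0.71, adjusted p = 0.0308). The 3 genes and EFEMP1 did not overlap between the groups, against 5.47% of all genes tested. EFEMP1 gave 1.47 (SE 0.53, adjusted p = 0.0666). Without regenerated tissue 2, the library with the most muscle of its group, 0 members passed, and MFAP5 gave 2.29 (adjusted p = 0.0985), FBLN5 1.41 (adjusted p = 0.12) and FBN1 1.08 (adjusted p = 0.341). FBN1 was also lost without ileum graft 3 (adjusted p = 0.058) or 5 (adjusted p = 0.0808), and with these groups fitted alone (adjusted p = 0.0594), where EFEMP1 passed instead (1.44, adjusted p = 0.0463). LTBP4 passed without ileum graft 3 (1.78, adjusted p = 0.0115). Of the 44 other pathway genes 9 were higher and 1 lower, with THSD4 at 3.40 (SE 0.53) and FBLN1 at 1.99 (SE 0.45).

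Regenerated tissue of the PRS arm did not pass against that of the SIS arm for any member in edgeR or DESeq2 (0% of all genes tested passed in edgeR). An unadjusted p of 0.05 was reached by 0 members and by 763 of all 17177 genes tested. LOX gave -1.20 (interval -2.74 to 0.34) and ELN -1.07 (interval -2.71 to 0.58), and FBN1 gave 0.14 (interval -1.29 to 1.56).

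Native bladders were compared between arms to see the level from which each arm was measured. Against the native bladders of the Entero arm, those of the scaffold arms gave 0 calls among the 10 members in edgeR (0.0466% of all genes tested passed) and 0 in DESeq2. An unadjusted p under 0.05 was reached by 0 members and by 325 of all 17177 genes tested. Log2 fold changes lay between -0.01 for MFAP5 (interval -1.50 to 1.49) and 0.53 for LTBP2 (interval -0.54 to 1.59). Native bladders of the PRS arm gave 0 calls against those of the SIS arm (0% of all genes tested passed), 1 at an unadjusted p under 0.05 and 0 in DESeq2. That 1 was FBN1, with -1.49 (interval -2.97 to -0.002, adjusted p = 0.711), and MFAP5 gave -1.53 (interval -3.40 to 0.34). Of all 17177 genes tested 1205 reached that unadjusted p, so 1 of 10 members was near the background share. DESeq2 called 115 genes. Of the 10 log2 fold changes in this comparison 9 were below 0, and MFAP4 gave 0.09. Their median was -0.87, against -0.004 over all genes. The fibroblast sum was lower in the same direction, at 1062 to 4036 CPM in PRS native bladder and 3767 to 7584 CPM in SIS native bladder, and its part in these values was not tested.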

How the data were processed

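Raw counts of reads per gene were used as the authors deposited them. The submitters' processing notes list featureCounts 1.5.0-p3, StringTie 1.3.3b and HISAT2 2.0.5. Build, annotation and strand setting were not given in the sources used here. Coordinates and sequences are therefore not printed, and overlapping genes cannot be separated. The deposited gene length served for TPM only.

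Genes passed filterByExpr (minimum count 10), leaving 17177 of 27533. Libraries were scaled by TMM, and 28 libraries entered 1 edgeR 4.0.16 quasi-likelihood model (R 4.3.3) with 6 groups as terms and 11 contrasts. P-values were adjusted over all genes by Benjamini and Hochberg's method at 0.05. Each SE was obtained by dividing the log2 fold change by the root of the F statistic, and 95% intervals rest on it. The pipeline was tested on simulated data. Alternatives were DESeq2 1.42.0, RLE size factors, no filter, the compared groups alone, each library left out, and the animal as a block.

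Native and graft libraries pair by the animal codes in the labels. The correlation of their deviations from group means ran from -0.299 to 0.707 over 14 animals. Replicates of a group are separate animals by those codes. Each code also holds the letter F or M. M marks animals 4 and 5 of the Entero and SIS arms and animals 3 and 4 of the PRS arm. The letter was not a term in the model, and its part in the results was not tested. All 10 members were tested in each comparison, but several comparisons print values for only some of them. Of 44 other pathway genes at most 6 called genes with the smallest p were named. Members and lists were chosen with earlier results of these data known. The markers MYH11 and KRT5 were not matched by symbol.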

Additional observations from a re-analysis of the deposited data

Results flagged for a closer look

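In 7 of 60 gene-by-group sets of log2(CPM + 1), 1 library stood far from the rest by Dixon's ratio of gap to range, of which chance flags about 1 in 20. Regenerated tissue 2 of the SIS arm was high for ELN (ratio 0.723) and LTBP2 (0.732). Regenerated tissue 2 of the PRS arm was high for FBLN5 (0.893) and EFEMP1 (0.829). Native bladder 4 of the Entero arm was high for EFEMP1 (0.831). LTBP2 was low in ileum graft 5 (0.735) and in native bladder 3 of the PRS arm (0.903), at 4.44 and 6.81 CPM. No member passed edgeR's test of a difference in graft change between arms.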

How the results depend on the processing

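The number of members called stayed within 1.5 times of its value under RLE size factors, no filter, the compared groups alone and the animal as a block, in every comparison where these could be fitted, although with the compared groups alone FBN1 was lost and EFEMP1 gained for PRS against ileum, and ELN and LOX were lost for SIS against ileum. In the replicate block fit, 4 members fell in ileum (5 without the block), the lost call being FBN1 (adjusted p = 0.129), and the block changed no other member's call. DESeq2 called 1 member in place of 0 for the change on scaffolds minus that in ileum, and 5 in place of 3 for PRS regenerated tissue against ileum. Leaving out each library gave 2 to 5 calls for ileum against native bladder, the 2 without native bladder 4. It gave 0 to 3 for scaffolds minus ileum, 4 to 7 for SIS against ileum and 0 to 3 for PRS against ileum, and 0 throughout in the other 7 comparisons. Of 212 recomputed values of called members 28 were no longer past the threshold and 0 changed sign; the cause was not tested. Of 1718 values of members not called 15 passed and 110 changed sign. Over all genes, the count called for PRS against ileum was 2399 and 1040 with these groups alone, for SIS against ileum 3627 and 2326, and for scaffolds minus ileum 1269, 2035 in DESeq2 and 812 with the block. In DESeq2 it was 69 for SIS and 30 for PRS against native bladder, 64 for both, 20 for PRS minus SIS change and 18 for PRS against SIS regenerated tissue (0 each in edgeR). It was 115 between PRS and SIS native bladder (0 in edgeR) and 27 between scaffold and Entero native bladder (8 in edgeR). In CPM rather than per length MFAP4 led in 0 of 6 groups, not 6. The median r between members was 0.78 over native bladders, 0.73 over 28 libraries and 0.82 over the 9 native bladders of the scaffold arms. The share of graft-higher pairs of gene and animal cannot depend on the pseudocount, which leaves the sign of each difference unchanged. Every member had at least 23 reads in each library.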
